A study of Mus musculus with 6 samples.

Results

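The nerve, Schwann cell and neurotrophin genes of brown adipose tissue (BAT) are described here in mice lacking soluble ST2 (sST2). They comprise 7 of the 35976 rows of the count table, taken by gene symbol: Sox10, S100b, Ngfr, Th, Clstn3, Bdnf and Gdnf. The samples were BAT of 3 wild-type (WT) and 3 sST2-KO mice on a C57BL/6J background, aged 10 weeks, profiled by RNA-seq. In the sST2-KO mice, titled ST2-KO in the sample labels, CRISPR/Cas9 had been used throughout the body to delete the Il1rl1 intron that follows exon 8 and precedes exon 9, which removes the stop codon of sST2 and is meant to leave the membrane receptor ST2L. The WT mice were littermates. All 6 mice, WT included, had undergone surgical denervation of BAT, in which the intercostal nerves that bring sympathetic and sensory fibers to the pad were cut and segments removed. They were later exposed to 10 °C for 8 h. No innervated or unexposed mice were among these samples, so the values compare genotypes within denervated, cold-exposed BAT and give no measure of what denervation or cold did. The question is which nerve-related genes differed in level between these genotypes.

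Brown fat is supplied by sympathetic axons that release norepinephrine onto brown adipocytes. The cell bodies of these neurons lie in ganglia outside the pad, while Schwann cells ensheath the axons inside it and survive for some time after the axons are cut. Target tissues and glia secrete neurotrophic factors, among them Bdnf and Gdnf, which act on neurons and glia. Ngfr is a receptor for Bdnf and the other neurotrophins, while Gdnf has receptors of its own. Brown adipocytes themselves express a short form of calsyntenin 3, Clstn3b, which is known to promote secretion of the calcium-binding protein S100b, and S100b in turn stimulates the outgrowth of sympathetic neurites.

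Of the 7 genes, 4 fell in sST2-KO BAT, namely Clstn3, S100b, Sox10 and Gdnf. They reached an adjusted p under 0.05 and a change above 2-fold in edgeR's quasi-likelihood test, the rule for a call throughout. The same 4 passed when only the adjusted p was asked for. Over all 14542 genes tested, 7.10% were called lower, 9.04% were called higher and 16.1% were called in either direction, and without the 2-fold minimum the shares were 9.10% lower, 10.5% higher and 19.6% in either direction. Ngfr was lower in all 3 sST2-KO libraries with TMM scaling but was not called. Bdnf and Th had too few counts to be tested. In all 5 genes tested, the TMM-scaled sST2-KO values lay below the WT values without overlap. This was the case for 19.7% of the genes tested, while 41.5% had no overlap in either direction. For Ngfr the gap rests on that scaling, as described below. The median log2 fold change of these 5 genes was -1.70, against 0.034 over all genes. The 7 genes were chosen with earlier results of these data known, so these shares and medians describe them and do not test the group. All 64 refits of these 5 genes under other settings or with a library left out kept a negative sign.

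**Figure D1:**
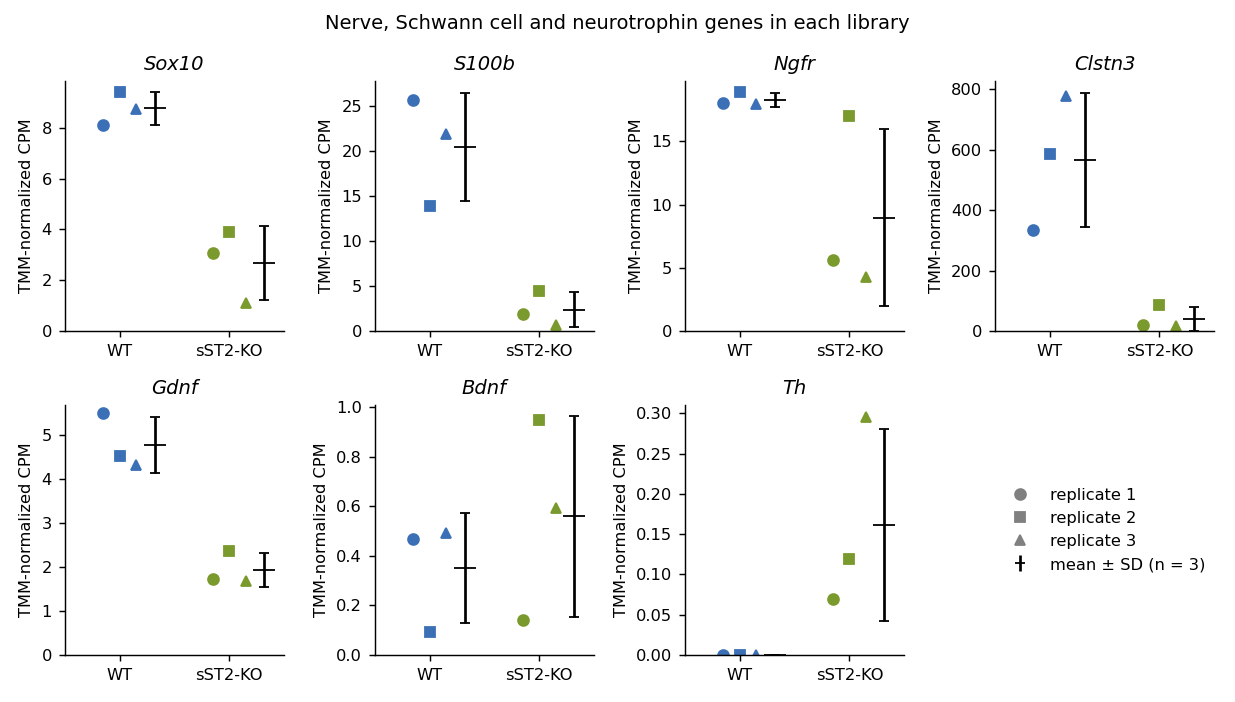
Level of each of the 7 genes in each library, in TMM-normalized CPM on linear axes that start at 0. Blue points are the 3 WT and green points the 3 sST2-KO libraries, point shapes give the replicate and black bars the mean and SD. Sox10, S100b, Ngfr, Clstn3 and Gdnf have no overlap between the groups, the replicate 2 library of sST2-KO lies closest to WT in each, and Bdnf and Th lie below 1 CPM.

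The libraries held between 8159442 and 12874809 counts. Levels are given as CPM, the counts scaled to library size by the TMM method, on which 1 count was worth 0.0697 to 0.123 CPM. The summed level of 13 brown adipocyte genes ranged from 8679 to 15891 CPM in WT and from 432 to 2139 CPM in sST2-KO libraries, with 12 of the 13 lower and 8 called lower. All 18 skeletal muscle genes were higher in sST2-KO libraries without overlap, and their sum ranged from 87.4 to 1554 CPM in WT and from 4324 to 18264 CPM in sST2-KO, with 5 called. Macrophage genes summed to 928 to 1281 CPM in WT and 1643 to 6724 CPM in sST2-KO, with 11 of 13 in the higher direction and 3 called. The shares called in either direction were 69.2% for brown adipocyte, 27.8% for skeletal muscle and 23.1% for macrophage genes, against 16.1% over all genes. Liver genes stood at 6462 CPM in WT replicate 2 and between 127 and 483 CPM elsewhere. The part that the differences in these marker genes play in the results below was not tested, and in bulk BAT fewer cells of a type cannot be told apart from less RNA per cell. The sST2-KO replicate 3 library stood apart, with 6.8% of its counts from mitochondrial genes against 11.8% to 16.6% in the other 5, and it had the lowest Sox10, S100b, Ngfr, Clstn3 and Gdnf. Without it the log2 fold changes were -1.34 for Sox10, -2.70 for S100b, -0.71 for Ngfr, -3.39 for Clstn3 and -1.23 for Gdnf, with adjusted p values of 0.0423, 0.0248, 0.343, 0.0347 and 0.0793, so 3 of the 7 genes were called. Il1rl1, the targeted gene, had 19, 19 and 6 counts in WT libraries against 55, 69 and 142 in sST2-KO libraries, and since the counts sum sST2 and ST2L they do not check the genotype.

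Clstn3 and S100b, the genes with the largest falls, are shown with the sequence just upstream of their canonical transcripts, so that the letters around the annotated starts of these genes can be read. For Clstn3 the window of the short transcript Clstn3-208 is added, since the gene has a second start used in brown fat. The sequences are from GRCm39 on the strand of the gene, 5′ to 3′. They cover chr6:124441756-124442005 for Clstn3 and chr6:124410463-124410712 for Clstn3-208, both on the minus strand. For S100b they cover chr10:76089234-76089476 on the plus strand. The S100b sequence stops 7 bases before the canonical start, where other transcripts have exon sequence. Capitals mark the one match to the searched motifs.
Clstn3: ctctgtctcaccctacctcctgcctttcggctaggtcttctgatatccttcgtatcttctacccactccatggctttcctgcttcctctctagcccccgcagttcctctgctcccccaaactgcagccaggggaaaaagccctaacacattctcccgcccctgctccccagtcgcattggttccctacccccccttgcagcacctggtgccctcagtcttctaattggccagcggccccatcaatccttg
Clstn3-208: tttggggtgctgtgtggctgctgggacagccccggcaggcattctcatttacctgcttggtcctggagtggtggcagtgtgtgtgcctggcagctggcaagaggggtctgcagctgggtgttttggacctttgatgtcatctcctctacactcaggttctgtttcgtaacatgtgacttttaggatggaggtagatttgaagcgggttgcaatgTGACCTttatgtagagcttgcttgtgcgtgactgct
S100b: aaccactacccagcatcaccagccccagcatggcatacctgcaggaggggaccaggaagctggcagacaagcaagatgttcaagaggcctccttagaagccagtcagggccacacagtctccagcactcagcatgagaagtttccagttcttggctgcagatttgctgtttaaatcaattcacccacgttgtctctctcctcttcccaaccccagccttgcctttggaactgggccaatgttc

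The windows of 250 bases upstream of the canonical starts of S100b, Ngfr, Th, Clstn3, Bdnf and Gdnf and of Clstn3-208 were searched on both strands for the SOX core letters ACAAAG and ACAATG, the nuclear receptor half-site AGGTCA and the cyclic AMP response element TGACGTCA. None of the 7 windows held either SOX core, which 23.7% of the windows of 21757 protein-coding genes did. The AGGTCA half-site occurred once, in the Clstn3-208 window, 36 bases upstream of the start and on the opposite strand, so that it reads TGACCT in the sequence printed above. Of all windows, 13.1% held this half-site. The cyclic AMP response element occurred once, 26 bases upstream of the start of Th, and in 1.70% of all windows. These matches describe letters and not binding.

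Sox10, S100b and Ngfr are used as markers of Schwann cells. Sox10 encodes the transcription factor that Schwann cells need throughout their life, and lies at chr15:79039108-79049469 of GRCm39, minus strand. The WT libraries had 87, 100 and 71 counts, in replicate order as in all such lists, and the sST2-KO libraries 44, 33 and 11. The 3 sST2-KO libraries all had less than the lowest WT library, and replicate 3 had the least. Sox10 averaged 8.76 ± 0.654 CPM in WT and 2.69 ± 1.45 CPM in sST2-KO BAT (SD, n = 3 each), 3.26-fold less. On the log2 scale it fell by 1.70 ± 0.44 (SE, 95% interval -2.74 to -0.67, edgeR adjusted p = 0.0365). The adjusted p lay between 0.0645 and 0.116 when any one WT library or sST2-KO replicate 1 was left out, so the call was lost there, and it was 0.0506 with library totals in place of TMM.

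S100b encodes a small calcium-binding protein of Schwann cells that brown adipocytes also secrete. The gene lies at chr10:76085090-76097159, plus strand. It had 276, 147 and 178 counts in WT and 28, 38 and 7 counts in sST2-KO BAT. The highest sST2-KO library thus lay well under the lowest WT library, although both groups varied more than for Sox10. S100b averaged 20.5 ± 6.07 CPM in WT and 2.38 ± 1.95 CPM in sST2-KO BAT (SD, n = 3 each), 8.74-fold less. It fell by 3.13 ± 0.60 on the log2 scale (SE, 95% interval -4.52 to -1.74, edgeR adjusted p = 0.0174). Over the 6 refits that each leave out 1 library, the log2 fold change lay between -3.93 and -2.70, and the call was lost without WT replicate 3, at an adjusted p of 0.0699.

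Ngfr encodes the low-affinity neurotrophin receptor p75, which Schwann cells raise when they lose their axons, and which fibroblast-like and perivascular cells can also carry. It lies at chr11:95459638-95478561, minus strand. Its counts were 193, 201 and 145 in WT and 81, 143 and 43 in sST2-KO libraries. In CPM the WT libraries ran from 17.9 to 18.9, and the sST2-KO libraries stood at 5.65, 17.0 and 4.25. The WT libraries were nearly level, and sST2-KO replicate 2 lay just below them while the other sST2-KO libraries were far lower. With library totals in place of TMM the groups overlap, since sST2-KO replicate 2 had 143 of 8159442 counts. That is a larger share than the 145 of 9841583 counts in WT replicate 3. The means were 18.3 ± 0.582 CPM and 8.95 ± 6.98 CPM (SD, n = 3 each). The log2 fold change of -1.04 ± 0.49 (SE, 95% interval -2.19 to 0.11) did not pass the test (edgeR adjusted p = 0.172). Without sST2-KO replicate 2 it was -1.90 with an adjusted p of 0.0201.

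Clstn3 encodes calsyntenin 3, a synaptic adhesion protein in neurons, together with the short form made by brown adipocytes. The gene lies at chr6:124407540-124441755, minus strand, and RefSeq lists Clstn3b among its synonyms. Of the 7 genes it had the most counts and the largest change. Its counts were 3591, 6204 and 6306 in WT and 285, 739 and 170 in sST2-KO libraries. Each WT library thus had several times the count of the highest sST2-KO library. Clstn3 averaged 566 ± 222 CPM in WT and 41.4 ± 40.1 CPM in sST2-KO BAT (SD, n = 3 each), 13.7-fold less. It fell by 3.77 ± 0.72 on the log2 scale (SE, 95% interval -5.45 to -2.09, edgeR adjusted p = 0.0175). It ranged from -4.97 to -3.39 with each library left out, and the call was lost without WT replicate 3, at an adjusted p of 0.0679.

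In the annotation, the long transcript Clstn3-228 has 18 exons and 4054 bases. The short transcripts Clstn3-203 and Clstn3-208 start inside its intron 16 and have 3 exons. They share 1177 exon bases with the long transcript, which is 29.0% of its length, and have 96 and 817 bases of their own. A count per gene adds reads from both forms. The fall of Clstn3 therefore cannot be assigned to the neuronal or to the adipocyte form from these counts.

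**Figure D2:**
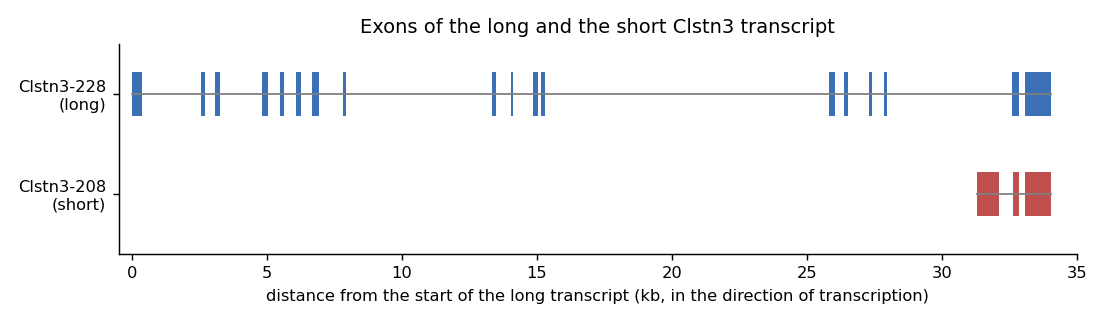
Exons (boxes) and introns (lines) of the long Clstn3-228 and the short Clstn3-208 transcript, drawn to scale against the distance in kb from the start of the long transcript. The short transcript starts 31.3 kb downstream, in intron 16, and its last 2 exons lie within exons 17 and 18 of the long one.

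Gdnf and Bdnf encode secreted neurotrophic factors. Gdnf, which acts through Ret and a Gfra co-receptor, lies at chr15:7840327-7867060, plus strand. It had 59, 48 and 35 counts in WT and 25, 20 and 17 counts in sST2-KO libraries. Every sST2-KO value was below every WT value, and both groups were tight. Gdnf averaged 4.78 ± 0.635 CPM in WT and 1.93 ± 0.384 CPM in sST2-KO BAT (SD, n = 3 each), 2.48-fold less. It fell by 1.31 ± 0.31 on the log2 scale (SE, 95% interval -2.04 to -0.58, edgeR adjusted p = 0.0291). Of the refits with 1 library left out, only that without sST2-KO replicate 2 kept the call (adjusted p = 0.0461), and the others lay between 0.0642 and 0.0934. It was also lost with library totals (0.0602) and without the expression filter (0.0514).

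Bdnf, the ligand of the receptor Ntrk2, lies at chr2:109505045-109557475, plus strand. It had 5, 1 and 4 counts in WT and 2, 8 and 6 counts in sST2-KO libraries, 10 and 16 in all. The groups overlapped, and an exact two-sided permutation test gave p = 0.4, where 0.1 is the smallest p that 3 against 3 libraries allow. A fit without the expression filter gave 0.61 ± 0.865 on the log2 scale (SE, adjusted p = 0.675). A difference in Bdnf was not detectable at this depth. The annotated antisense gene Gm45346 shares 1028 exon bases with Bdnf, and the library kit is not one that the labels describe as keeping the strand.

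**Figure D3:**
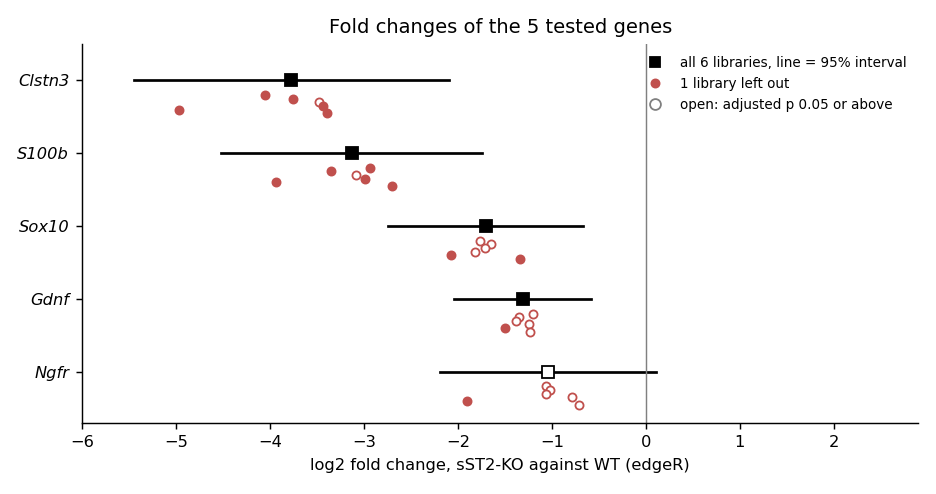
Log2 fold change of sST2-KO against WT for the 5 tested genes, with the 95% interval as a line. Black squares use all 6 libraries, red circles leave out 1 library each, and open symbols mark an adjusted p of 0.05 or above. All values lie below 0, the interval of Ngfr reaches 0.11, and Ngfr is called without sST2-KO replicate 2.

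Th encodes tyrosine hydroxylase, the rate-limiting enzyme of norepinephrine synthesis, and lies at chr7:142443466-142484865, minus strand. It had 0 counts in all 3 WT libraries and 1, 1 and 3 counts in sST2-KO libraries. The annotated antisense gene Gm73894 shares 103 exon bases with Th. The labels do not describe the kit as keeping the strand, so the strand of these few reads is not known. A count of 0 allows up to 3 counts, or 0.280 to 0.370 CPM in the WT libraries, so both groups were at or under the floor and no fold change is given. Other genes that make, pack, take up or degrade norepinephrine were covered by a list of 12, of which 7 were tested. None was called by edgeR, none had an unadjusted p under 0.05 and none was called by DESeq2, and their median log2 fold change was -0.09 (0.18 with library totals). Dbh, which converts dopamine to norepinephrine, Slc6a2, the norepinephrine transporter, and Pnmt had 3 counts or fewer in every library. Among the abundant genes of the list, the degrading enzyme Maob had a log2 fold change of -0.09 (adjusted p = 0.925, log2 fold change 0.18 with library totals). It was 0.42 (adjusted p = 0.584) for the transporter Slc22a3, which many cells express, and 0.51 (adjusted p = 0.247) for the cofactor enzyme Gch1.

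Per kilobase of the canonical transcript, the order of levels in WT BAT was Clstn3, S100b, Ngfr, Sox10, Gdnf, Bdnf and Th, from 140 ± 54.7 CPM per kb (SD, n = 3) for Clstn3 to 0.0858 ± 0.0544 CPM per kb for Bdnf. The WT values of neighbors in this order did not overlap. In sST2-KO BAT Ngfr, at 2.60 ± 2.02 CPM per kb, stood above S100b, at 1.41 ± 1.15 CPM per kb, and these overlapped. There Clstn3 also overlapped with Ngfr, S100b with Sox10, Sox10 with Gdnf, and Bdnf with Th. Gdnf and Bdnf were the one pair of neighbors without overlap. Across the 7 genes, sST2-KO replicate 2 had the highest sST2-KO level of Sox10, S100b, Ngfr, Clstn3, Gdnf and Bdnf.

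The wider Schwann cell list, which does not contain Sox10, S100b or Ngfr, held genes of both directions. Of its 25 genes 16 were tested, of which 12 had a lower and 4 a higher value in sST2-KO, 10 and 6 with library totals. The median log2 fold change was -0.53, against 0.034 over all genes. Without overlap, 6 of the 16 were lower and 2 higher, against 19.7% lower and 41.5% in either direction over all genes. Called were 2, or 12.5%, against 16.1% over all genes. Besides these 2, the lower genes without overlap were Cdh19, Kcna1, Olig1 and Gap43. Their log2 fold changes were -1.40, -1.55, -1.84 and -1.26 (edgeR adjusted p 0.0578 to 0.0941). Erbb3, the neuregulin receptor of the Schwann lineage, fell from 3.15 ± 0.445 to 1.41 ± 0.239 CPM (SD, n = 3 each, log2 fold change -1.15, adjusted p = 0.0469). Foxd3, a transcription factor of neural crest and early glia, fell from 2.28 ± 0.928 to 0.681 ± 0.173 CPM (log2 fold change -1.71, adjusted p = 0.0406). Foxd3 passed the expression filter only through the WT libraries, where it was high. The calls of Erbb3 and Foxd3 were lost in each of the 6 refits with a library left out, where the adjusted p ran from 0.0532 to 0.164. They were also lost with library totals (0.0957 and 0.0669) and without the filter (0.109 and 0.0632).

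The abundant myelin genes of that list differed little. Pmp22, a myelin membrane protein also made outside nerves, was at 95.5 ± 12.7 CPM in WT and 70.9 ± 28.0 CPM in sST2-KO (SD, n = 3 each, log2 fold change -0.43, adjusted p = 0.339). Mbp, the myelin basic protein, was at 24.0 ± 4.44 and 22.4 ± 6.37 CPM (log2 fold change -0.10, 0.16 with library totals, adjusted p = 0.81). Scn7a, a sodium channel of Schwann cells, had overlapping groups (log2 fold change -0.34, adjusted p = 0.615). Cnp, a myelin enzyme, and Egr2, the regulator of myelination that macrophages also express, were higher by 1.56-fold and 1.91-fold, below the 2-fold minimum, with adjusted p values of 0.0292 and 0.0358. Those p values rose above 0.05 in 5 of 6 refits with a library left out, all but the one without WT replicate 1.

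**Figure D4:**
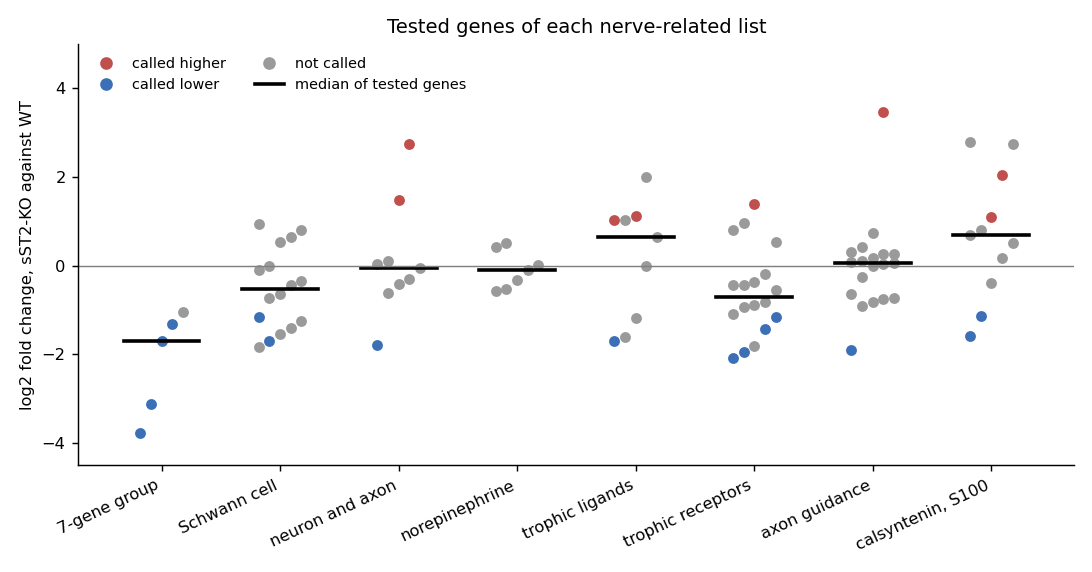
Log2 fold changes of the tested genes of the 7-gene group and of each nerve-related list. Each point is a gene, blue if called lower, red if called higher and grey otherwise, and the bar is the median. The median lies at -1.70 in the 7-gene group, -0.53 in the Schwann cell list and -0.70 among trophic receptors, and at 0.65 among trophic ligands.

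Neuron and axon genes were mostly near the limit of detection. Of 23 genes, 11 had 3 counts or fewer in every library, among them Snap25, Syt1, Prph, Npy and Scn10a, and 9 were tested, of which 4 had a higher and 5 a lower value. The median log2 fold change was -0.06 (0.20 with library totals). Of the tested genes 33.3% were called, against 16.1% over all genes. Syp, the synaptic vesicle protein synaptophysin, fell from 10.5 ± 1.67 to 3.04 ± 1.64 CPM (SD, n = 3 each, log2 fold change -1.80, adjusted p = 0.0258). Nefh, a neurofilament gene, had 4, 1 and 1 counts in WT and 20, 16 and 10 in sST2-KO libraries (log2 fold change 2.74, adjusted p = 0.0231). It passed the expression filter only through the sST2-KO libraries, where it was high, and its WT counts lay near the floor. Its call, and the share of 33.3% that includes it, are therefore only described. Avil, an actin-binding protein of sensory neurons, rose from 1.60 ± 0.0858 to 4.48 ± 0.250 CPM (log2 fold change 1.48, adjusted p = 0.0186). Tubb3 and Uchl1, a neuronal tubulin and a deubiquitinase, had overlapping groups (log2 fold changes 0.04 and -0.30). So did Calca and Trpv1, other genes of sensory neurons (log2 fold changes -0.06 and 0.11, edgeR adjusted p 0.906 and 0.87). The other neurofilament genes Nefl and Nefm had 5 counts or fewer in every library and were not tested. Without WT replicate 2 or 3, the calls of Syp, Nefh and Avil were lost (adjusted p 0.0617 to 0.102). That of Nefh was also lost without sST2-KO replicate 2 (0.0575), and that of Syp without sST2-KO replicate 1 (0.0603) or 3 (0.0515).

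Among 15 other trophic ligands, 9 were tested, of which 6 had a higher and 3 a lower value (5 and 4 with RLE scaling). The neuregulin Nrg4, which brown adipocytes secrete, fell from 116 ± 14.3 to 35.6 ± 10.7 CPM (SD, n = 3 each, log2 fold change -1.71, adjusted p = 0.0135). Manf, a neurotrophic factor induced by endoplasmic reticulum stress, rose from 59.5 ± 10.5 to 129 ± 27.6 CPM (log2 fold change 1.11, adjusted p = 0.0209). Clcf1, a ligand of the ciliary neurotrophic factor receptor, rose from 8.47 ± 1.73 to 17.1 ± 1.70 CPM (log2 fold change 1.02, adjusted p = 0.0285). The median of the list was 0.65, and 33.3% of its tested genes were called, against 16.1% over all genes. The call of Nrg4 was lost without WT replicate 3 (0.0610), that of Manf without WT replicate 2 or 3 or sST2-KO replicate 2 or 3 (0.0518 to 0.0956), and that of Clcf1 in each of the 6 refits (0.0525 to 0.107) and, at just under 2-fold, with RLE scaling and in DESeq2.

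Of 19 receptors of these ligands, 18 were tested, 14 with a lower and 4 with a higher value (13 and 5 with library totals), and the median log2 fold change was -0.70. With Erbb3, which is in both lists, 4 were called lower and 1 higher, 27.8% of those tested against 16.1% over all genes. Ntrk3, the receptor of neurotrophin 3, fell from 152 ± 14.6 to 35.8 ± 26.4 CPM (SD, n = 3 each, log2 fold change -2.09, adjusted p = 0.0456). Cntfr, the receptor subunit for ciliary neurotrophic factor, fell from 75.8 ± 18.2 to 19.5 ± 13.4 CPM (log2 fold change -1.95, adjusted p = 0.0494), and Erbb4, a neuregulin receptor, from 4.74 ± 1.02 to 1.74 ± 0.665 CPM (log2 fold change -1.43, adjusted p = 0.0437). Sorl1, a sorting receptor, rose from 9.29 ± 1.94 to 24.5 ± 5.97 CPM (log2 fold change 1.40, adjusted p = 0.0172), while its relative Sort1 was 1.85-fold lower, under the 2-fold minimum, with an adjusted p of 0.0300. With library totals the adjusted p of Ntrk3, Cntfr and Erbb4 was 0.0513, 0.0619 and 0.0727, and that of Cntfr was also 0.0513 with robust estimation and that of Erbb4 0.0622 without the filter. With a library left out, Ntrk3 passed without sST2-KO replicate 2 or 3, Cntfr without sST2-KO replicate 1 or 3, Erbb4 in no refit (0.0542 to 0.129), and Sorl1 in all but those without WT replicate 2 (0.0570) or 3 (0.0618).

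The receptors of Gdnf itself were detected. The log2 fold change was -0.44 for Ret, its signaling receptor (adjusted p = 0.44), and -1.09 for the co-receptor Gfra1 (adjusted p = 0.164), both with overlapping groups. Ntrk2, the receptor of Bdnf, was abundant at 182 ± 27.2 CPM in WT and 123 ± 53.5 CPM in sST2-KO (SD, n = 3 each, log2 fold change -0.56, adjusted p = 0.297). Ret and Gfra1 were named after their values were seen. The other abundant receptor genes, Sdc3, Il6st and Lifr, were not called (log2 fold changes 0.96, 0.80 and -0.83).

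Axon guidance genes showed no common direction, with 12 of 19 tested genes in the higher and 7 in the lower direction (11 and 8 with RLE scaling) and a median log2 fold change of 0.06. Calls made up 10.5% of the tested genes, against 16.1% over all genes. Sema3a, a secreted repellent of sensory and sympathetic axons, had 5, 2 and 4 counts in WT and 49, 50 and 36 in sST2-KO libraries, so the groups were far apart. It rose from 0.383 ± 0.169 to 4.30 ± 1.42 CPM (SD, n = 3 each, log2 fold change 3.46, adjusted p = 0.0133). The call of Sema3a was lost without WT replicate 3 (0.0608). Sema3a passed the expression filter only through the sST2-KO libraries, with WT counts near the floor, so its fold change is rough. Sema3e, a ligand of plexin D1, fell from 2.39 ± 0.928 to 0.647 ± 0.210 CPM (log2 fold change -1.90, adjusted p = 0.0349), and passed in 1 of 6 refits with a library left out, that without WT replicate 2. It passed the expression filter only through the WT libraries, where it was high. Plxna1, a semaphorin receptor, was 1.67-fold higher (adjusted p = 0.0494, 0.0563 with RLE scaling). Nrp1, Sema3f, Robo4 and Sema3g, the most abundant genes of the list, were not called (log2 fold changes -0.25, 0.26, 0.03 and -0.73).

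The pattern of each gene with at least 10 counts in every library was compared with that of all tested genes above a mean log2 CPM of 2, as the root mean square distance of log2 CPM over the 6 libraries after centering. The 6 libraries share their group difference, so this is a description. For Clstn3 the nearest of 11359 genes were Ucp1, the uncoupling protein of brown adipocytes (distance 0.33), Cox7a1, a respiratory chain subunit of heart, muscle and brown fat (0.34), and Sgk2, a kinase (0.43). For Sox10 they were Ptprd (0.14), Tmem45b (0.16) and Hibch (0.17), for Ngfr Akap1 (0.23), Sptbn5 (0.25) and Fads2 (0.25), and for Gdnf Nkd2 (0.10), Mmachc (0.11) and Rangrf (0.12). None of these 12 genes is in the Schwann cell list. Few of the candidates were genes of that list, so their absence among 12 was likely beforehand and nothing is concluded from it. Erbb3, Foxd3, Gap43 and Olig1 of that list lay below the mean log2 CPM of 2 and were not candidates. S100b had 7 counts in sST2-KO replicate 3 and was left out.

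**Figure D5:**
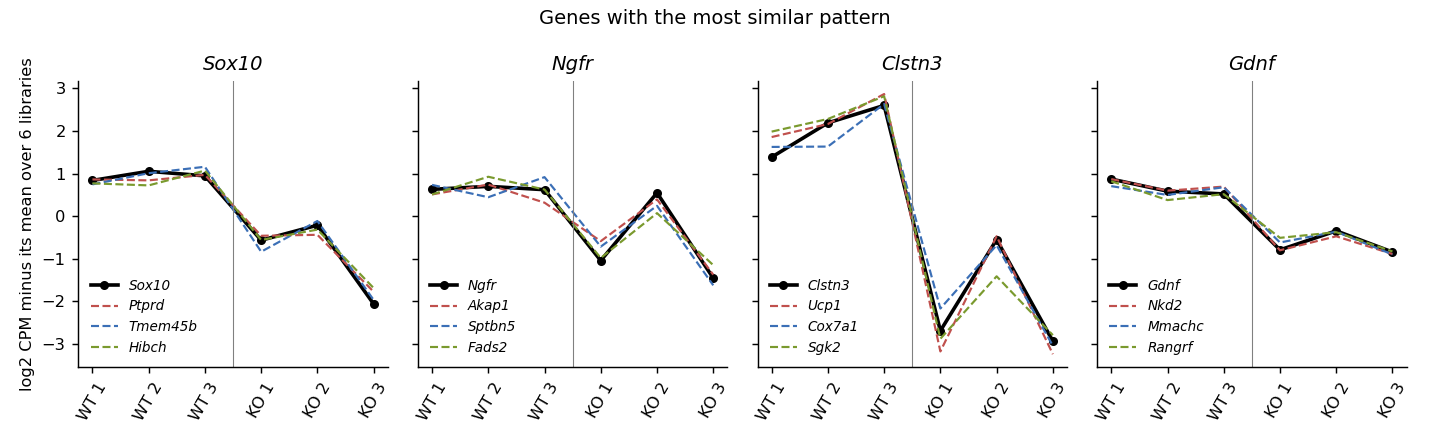
Log2 CPM minus its mean over the 6 libraries for Sox10, Ngfr, Clstn3 and Gdnf (black) and the 3 genes with the most similar pattern to each (colored dashed lines). Clstn3 runs with Ucp1 and Cox7a1 down to sST2-KO replicates 1 and 3 with a higher value in sST2-KO replicate 2.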

How the data were processed

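RNA-seq was performed on BAT of 3 WT and 3 sST2-KO mice. The authors selected mRNA with poly-T beads, sequenced paired-end reads, aligned them to the mouse genome (mm39, HISAT2 2.2.1, after FastQC 0.12.1, per the submitters' processing notes) and counted them per gene with htseq-count. The deposited values are raw counts per gene symbol, without normalization by the authors. The version and strand setting of htseq-count are not given in the sources used here. Groups and replicate numbers come from the sample titles, and 0 columns of values were left unused. In 27 of 35976 rows the symbol had become a date. No such row is named here, though all stayed in the totals.

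The analysis used edgeR 4.0.16 in R 4.3.3, with filterByExpr (14542 genes kept), TMM scaling, and the quasi-likelihood test on the groups alone. Adjusted p values are Benjamini-Hochberg values over all genes tested. A call needed an adjusted p under 0.05 and a change above 2-fold. The steps were run on simulated counts that varied less between replicates than these data. That run checked the code only, and not how the test behaves on these libraries. No library was a copy of another, since the chi-square per degree of freedom between libraries of a group was 36.6 to 104. The 6 mice are the replicates, and intervals cover the spread between them. A floor of 3 counts covers counting error only.

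The 7 genes and the lists were chosen with earlier results of these data known. Named genes are the 7, and in each nerve-related list the 4 tested genes with the highest mean log2 CPM and those with an adjusted p under 0.05, with the 3 most similar genes for each of the 7 that had at least 10 counts in every library, and Il1rl1. Other named genes were picked after their values were seen. Some results that this rule covers are not reported here. The alternatives were DESeq2 1.42.0, RLE factors, library totals, robust estimation, a filter of at least 10 counts in every sample or none, a block on the replicate number, and each library left out. Coordinates, lengths and upstream windows are from the GENCODE annotation and sequence of GRCm39, and the synonym of Clstn3 from RefSeq. Figures were drawn with matplotlib 3.10.9.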

Additional observations from a re-analysis of the deposited data

How the results depend on the processing

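The direction of the 5 tested genes held in every refit, but their calls depended on single libraries and on the scaling. With library totals in place of TMM, 2 of the 7 genes were called, with or without the 2-fold minimum, while the 2 lower Schwann cell calls and the 4 lower receptor calls were lost. There 1 Schwann cell gene (Egr2, log2 fold change 1.19, adjusted p = 0.0288) and 2 receptors (Sorl1 and Il6st) were called, all higher. With it, the median over all genes went from 0.034 to 0.293 on the log2 scale and the calls over all genes from 1315 higher and 1033 lower to 1840 and 691. DESeq2 called 6 Schwann cell genes where edgeR called 2, all lower. Without the filter 0 Schwann cell genes, 5 ligands and 3 receptors were called, and with at least 10 counts in every sample 5 ligands and 0 guidance genes, with fewer genes tested. Under a replicate block on the number in the labels, 0 genes were called over all genes, in the 7-gene group and in every list, while 4623 genes had an unadjusted p under 0.05 in edgeR, and the adjusted p of Clstn3, S100b, Sox10 and Gdnf was 0.0644, 0.0709, 0.0782 and 0.0825. The labels do not say whether the replicate numbers pair the mice. Same-numbered libraries deviated from their groups with correlations of -0.06, 0.21 and -0.31, which with 3 libraries per group cannot decide it. With each library left out, calls ranged from 0 to 5 of the 7 genes, with or without the fold minimum, from 58 (without WT replicate 3) to 2323 over all genes, from 0 to 2 in the Schwann cell list, 0 to 3 for neuron and axon genes, 0 to 5 for ligands, 0 to 4 for receptors and 0 to 2 for guidance genes. The norepinephrine list stayed at 0. The sign of genes near 0 turned: Mbp to 0.156 and Maob to 0.179 with library totals, and with a library left out Mbp ran from -0.342 to 0.066, Scn7a from -0.68 to 0.255, Tubb3 from -0.33 to 0.38, Maob from -0.687 to 0.328, Sema3f from -0.135 to 0.428 and Robo4 from -0.231 to 0.154. The cause of these changes was not tested. Genes with few counts, such as Th and Bdnf, are limited by depth.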

Other observations

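The relatives of Clstn3 and S100b did not follow them as a group. Clstn1 and Clstn2, the other calsyntenins, had log2 fold changes of -0.39 (edgeR adjusted p = 0.202) and 0.18 (adjusted p = 0.84), with overlapping groups. Among the S100 genes, which encode calcium-binding proteins, S100a4 rose from 14.6 ± 4.78 to 60.9 ± 24.6 CPM (SD, n = 3 each, log2 fold change 2.05, adjusted p = 0.0154) and S100a6 from 43.2 to 71.1 CPM in WT to 85.7 to 173 CPM in sST2-KO libraries (log2 fold change 1.10, adjusted p = 0.0452). S100a1 fell from 416 ± 115 to 139 ± 56.7 CPM (log2 fold change -1.58, adjusted p = 0.0291), and S100a13 from 131 ± 22.3 to 59.5 ± 16.8 CPM (log2 fold change -1.13, adjusted p = 0.0261). Of the 11 tested genes of this list of 16, 8 had a higher and 3 a lower value, and the median log2 fold change was 0.70. Calls made up 36.4% of these 11, against 16.1% over all genes. The abundant S100a10 and S100a11 were not called (log2 fold changes 0.81 and 0.70). All 4 calls were lost without WT replicate 3 (adjusted p 0.0650 to 0.147), and those of S100a1, S100a13 and S100a6 also without WT replicate 2 or sST2-KO replicate 2 (0.0538 to 0.135). The call of S100a13 was also lost without sST2-KO replicate 3 and with library totals, where the change was under 2-fold (log2 fold change -0.94 and -0.86). The call of S100a6 was also lost without WT replicate 1 (0.0564) or sST2-KO replicate 3 (0.110).

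Melanocytes share Sox10 with Schwann cells. Of 9 melanocyte genes, Tyr, Tyrp1, Oca2 and Slc45a2 had no count in any library, and Mlana and Dct had 3 counts or fewer in each. Kit, Mitf and Pmel, which other cells also express, were tested and not called.

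Some values were picked after they were seen and have no test. The ratio of S100b to Sox10 counts within a library was 3.17, 1.47 and 2.51 in WT and 0.636, 1.15 and 0.636 in sST2-KO replicates 1 to 3, without overlap. The ratio of Ngfr to Sox10 counts was 2.22, 2.01 and 2.04 in WT and 1.84, 4.33 and 3.91 in sST2-KO, with overlap. Nrg1, the neuregulin that drives Schwann cell growth, did not pass the expression filter, with 1 count in each WT library and 11, 34 and 83 counts in sST2-KO libraries.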
